A study of Mus musculus with 36 samples.

Results

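The data set out here are those of the noon comparison: hearts labelled cK15 against control hearts, both taken at 12 pm, which was read as noon. It was chosen by its labels alone and holds 6 of the 36 libraries of the series, 3 cK15 (replicates 1, 3 and 4) and 3 control (replicates 2, 3 and 4), and it was described across all genes. The cK15 mice are labelled as KLF15 knockouts. The controls are labelled α-MHC cre, a Cre recombinase transgene whose promoter is active in heart muscle cells. The labels do not give the Klf15 allele, nor state whether the cK15 mice carry the same Cre. All animals were male C57BL/6J mice aged 11 to 12 weeks, kept in 12 h of light and 12 h of dark, and RNA came from the apex of the heart. The sources used here give no hour of lights-on. No label ties each library to its own animal, and the p-values therefore rest on the variation among libraries, which may be technical. Libraries of total RNA, depleted of ribosomal RNA, were made at 6 times of day, 4 h apart. The other 5 times are used here to estimate the spread and to ask whether a noon difference was also present at other hours.

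Klf15 (Kruppel-like factor 15) is a zinc-finger transcription factor that is abundant in heart, skeletal muscle, liver and kidney. Kruppel-like factors bind GC-rich and CACCC-type boxes in promoters. In muscle, Klf15 is known for its place in the use of branched-chain amino acids and lipids as fuels. In heart it is also known for rhythmic expression and for its link to the potassium channel subunit Kcnip2. Hearts oxidise mostly fatty acids, with ketone bodies, lactate, glucose and branched-chain amino acids as further fuels.

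Of 10600 genes tested, 80 (0.755%) passed the threshold at noon: 75 were lower in cK15 hearts (0.708%) and 5 were higher (0.0472%). The threshold was an adjusted p under 0.05 in limma, with the Benjamini-Hochberg adjustment over all 10600 genes, on log2(FPKM + 1). FPKM is the number of fragments scaled to gene length and library total. All log2 differences here are cK15 minus control on that scale, where changes of weakly expressed genes appear smaller than they are. With unadjusted p under 0.05 there were 616 genes. Of the 75 lower genes, 35 were at least 1 log2 unit lower and 7 at least 2 units lower. Of the 5 higher genes, 2 were at least 1 unit higher. The median difference over all tested genes was -0.0051. In all 80 genes the 3 cK15 libraries lay wholly on one side of the 3 controls. By comparison, 6.29% of all tested genes had every cK15 library below every control and 4.18% had every one above.

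**Figure D1:**
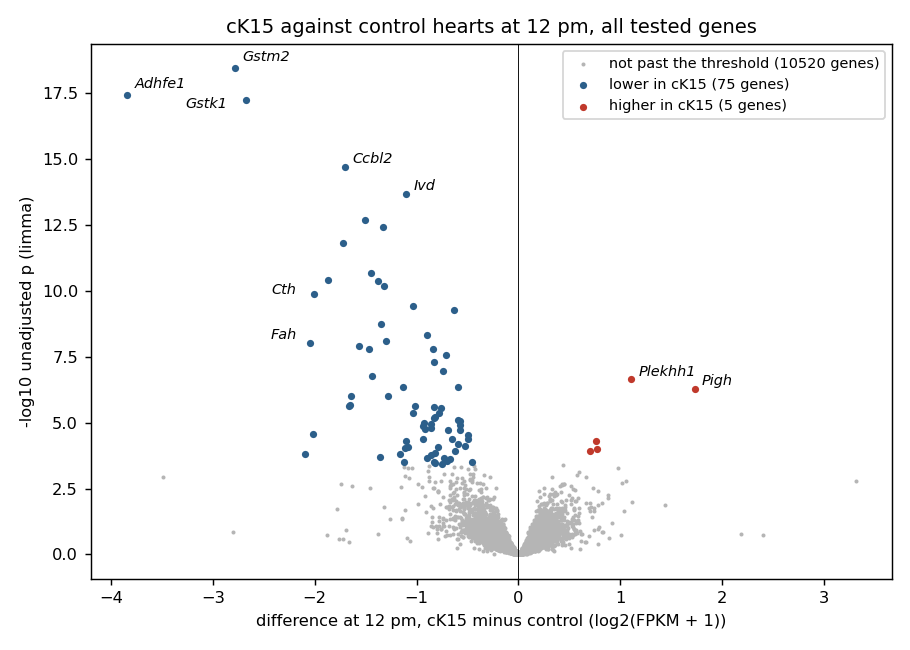
Each point is 1 of 10600 tested genes; the horizontal axis is the noon difference in log2(FPKM + 1), cK15 minus control, and the vertical axis is -log10 of the unadjusted limma p. The 75 lower genes (blue) reach -3.84 in Adhfe1, whereas the 5 higher genes (red) reach 1.73 in Pigh.

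Promoter sequences of 4 of the 15 called genes with the lowest differences are shown because these genes fell together and because a Kruppel-like factor is the gene removed. They were picked after the values were known, as some of the enzyme genes with an entry in the promoter table. Each line holds the 250 bases before the RefSeq transcription start (GRCm38.p6), 5′ to 3′ on the gene's own strand. Capitals mark matches, on either strand, to any of 3 boxes: CCACCC, then the longer box CACACCC, and the GC box with the letters GGGCGG. A match on the opposite strand appears as its reverse complement, and CACACCC cannot contain CCACCC.
Gstm2, chr3:107986421-107986670, minus strand: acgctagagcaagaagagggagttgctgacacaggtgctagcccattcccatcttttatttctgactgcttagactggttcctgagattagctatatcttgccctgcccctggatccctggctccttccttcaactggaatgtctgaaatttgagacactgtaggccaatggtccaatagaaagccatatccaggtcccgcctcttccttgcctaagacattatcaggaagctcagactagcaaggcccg
Gstk1, chr6:42245685-42245934, plus strand: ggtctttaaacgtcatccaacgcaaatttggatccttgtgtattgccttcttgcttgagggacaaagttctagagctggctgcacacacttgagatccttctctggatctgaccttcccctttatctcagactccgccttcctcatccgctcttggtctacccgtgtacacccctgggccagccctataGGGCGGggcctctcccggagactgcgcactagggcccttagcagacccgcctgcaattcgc
Fah, chr7:84605943-84606192, minus strand: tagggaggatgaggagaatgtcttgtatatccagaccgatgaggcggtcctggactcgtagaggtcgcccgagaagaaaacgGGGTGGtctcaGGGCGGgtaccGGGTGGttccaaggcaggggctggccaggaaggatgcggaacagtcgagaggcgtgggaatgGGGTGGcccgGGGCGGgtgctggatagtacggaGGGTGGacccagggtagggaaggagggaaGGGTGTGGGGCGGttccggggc
Ccbl2 (Kyat3), chr3:142700798-142701047, plus strand: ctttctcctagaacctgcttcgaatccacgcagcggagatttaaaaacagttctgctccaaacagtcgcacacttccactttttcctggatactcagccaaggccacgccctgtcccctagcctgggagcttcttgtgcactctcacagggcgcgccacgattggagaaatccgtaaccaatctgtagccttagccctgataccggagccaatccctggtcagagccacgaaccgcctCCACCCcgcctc
The Fah window held 4 matches to CCACCC, 1 to CACACCC and 3 to GGGCGG, while Gstk1 held 1 GGGCGG, Ccbl2 held 1 CCACCC and Gstm2 held none of the 3. Among the enzyme genes not shown, Fbp2 held 1 CCACCC and Selenbp1 held 1 CACACCC. The leftmost base of the nearest match lay 15 bases before the start in Fah, 12 in Ccbl2 and 61 in Gstk1. In the GENCODE annotation the Fah gene extends past this window, to 84606722, so that the window lies within an annotated longer transcript unit. Of the 75 lower genes, 57 had an entry in the promoter table, and 32 of these (56.1%) held CCACCC, against 36.5% of the 8374 tested genes with an entry. CACACCC was in 6 of the 57 (10.5%) against 8.65%, and GGGCGG in 30 (52.6%) against 63.9%. The E-box CACGTG, bound by clock proteins, was in 8 of the 57 (14.0%) against 10.2%. These are counts of letters in a window, with no test, and they show no binding.

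Klf15 itself was checked first. Its FPKM was 0.188 in cK15 replicate 1 and was listed at 0 in replicates 3 and 4, against 2.04, 0.656 and 1.25 in control replicates 2, 3 and 4. The highest cK15 value lay below the lowest control value. The difference was -1.08 ± 0.24 (SE, n = 3 per group; limma adjusted p = 0.0149). Control replicate 3 was the lowest of the controls, and the total level of Klf15 was low in every library. In 8 of 18 alternative settings the call was lost, though the value stayed negative in all of them. Among these were the fits without cK15 replicate 3 or 4 or without control replicate 2 or 4, with an adjusted p of up to 0.174. Over all 6 times, every one of the 18 cK15 libraries was below every one of the 18 controls. Of the other Kruppel-like factors, 8 were tested at noon and none passed the threshold. The 9 tested members had a median difference of -0.07 and a range from -1.08 to 0.31.

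Libraries of the series differed in one respect that the groups do not explain. In 12 libraries the 10 most abundant genes took a smaller share of the FPKM. This set was defined as the library of each group with the smallest share, so 1 in each group follows from the rule. The share was 16.1 to 17.7% in the set and 21.7 to 25.0% in all other libraries. At noon the set held cK15 replicate 1 (16.9%) and control replicate 2 (16.1%), against 21.9 to 24.5% in the other 4. The summed FPKM of 8 heart muscle cell markers was 59332 and 58053 in these libraries and 88552 to 111196 in the other 4. These markers are abundant genes, so their sum is not separate from that share. By its rule the set holds 1 library of each group at noon. A term for it raised the number of calls to 152 and kept all 80, whereas leaving its libraries out kept 58 of the 80. Depth is unknown, since the files hold no counts. At noon 14135 to 15395 genes were above 0, and library totals were 552713 to 671836 FPKM.

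The largest difference at noon was in Adhfe1, a mitochondrial hydroxyacid-oxoacid transhydrogenase that converts 4-hydroxybutyrate to succinic semialdehyde while forming 2-hydroxyglutarate. Its FPKM was 4.19, 2.36 and 2.73 in cK15 replicates 1, 3 and 4, and 72.1, 50.3 and 50.1 in control replicates 2, 3 and 4 (the order used for every gene here). The control mean was 18.6 times the cK15 mean, with a difference of -3.84 ± 0.20 (SE; adjusted p = 2.03e-14). The gene is at chr1:9547948-9580673 (plus strand, GENCODE M21, GRCm38). Over the day the 18 cK15 libraries ranged from 1.97 to 4.19 and the 18 controls from 50.1 to 95.6. The noncoding locus 2610203C22Rik overlaps Adhfe1 on the opposite strand by 19842 bases and fell too, by 1.57 on the log2 scale. The sources used here do not say whether the counting used strand, so the reads of these overlapping genes may not be separate.

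Bdh1, the mitochondrial enzyme that interconverts the ketone bodies 3-hydroxybutyrate and acetoacetate, was the other lower gene of the list of ketone body and hydroxyacid enzymes. Its FPKM was 8.96, 6.84 and 3.99 against 32.3, 27.6 and 26.2. The groups lay far apart, with a difference of -2.02 ± 0.41 (SE; adjusted p = 0.0055), and the call was lost without cK15 replicate 4 (adjusted p = 0.0754). In all, 2 of 11 tested members of the list fell and none rose, with a median of -0.11.

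Glutathione S-transferases, which couple glutathione to reactive compounds, gave further large drops among the called genes. Gstm2, a cytosolic mu-class enzyme, was at 23.0, 24.6 and 20.3 FPKM in cK15 and 156, 168 and 160 in control. The control mean was 7.13 times the cK15 mean, and the libraries of a group were close together. The difference was -2.78 ± 0.13 (SE; adjusted p = 3.93e-15), the smallest p of the comparison. Gstk1, the kappa-class enzyme of mitochondria and peroxisomes, was at 25.8, 32.9 and 29.3 against 178, 195 and 202. The control mean was 6.53 times the cK15 mean, with a difference of -2.67 ± 0.14 (adjusted p = 2.15e-14). These are the genes whose upstream windows held none (Gstm2) and 1 (Gstk1) of the searched boxes.

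Gstm7 was at 11.6, 14.9 and 12.8 FPKM against 55.4, 38.1 and 43.7 (difference -1.72 ± 0.15, adjusted p = 2.04e-09), and Gstm1 at 144, 172 and 165 against 225, 250 and 250 (difference -0.60 ± 0.09, adjusted p = 0.000168). In both genes all cK15 libraries were lower than all controls. The mu-class genes lie in a row on chromosome 3 and share sequence, so reads may be split between them. Gstm6 did not pass, at 0.709, 0.89 and 0 against 2.72, 3.06 and 1.35 (adjusted p = 0.205). Altogether 4 of 37 tested genes of glutathione and peroxide defence fell and none rose, and the median of the list was -0.08. The catalase, superoxide dismutase and peroxiredoxin genes of the list that were tested did not pass the threshold.

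Branched-chain amino acid breakdown held 10 lower genes among 24 tested (41.7%, against 0.708% of all genes), and no higher one. The list had a median of -0.38, against -0.0051 over all tested genes, and 17 of the 24 differences were below 0. In 15 of the 24 genes every cK15 library lay below every control, against 6.29% of all genes. With only the 6 noon libraries in the fit, 5 of the 10 calls were left.

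The first step of the pathway is the transfer of the amino group by Bcat2, the mitochondrial branched-chain aminotransferase. Its FPKM was 33.1, 35 and 31.7 in cK15 and 67.8, 71.8 and 67.3 in control. Control libraries were thus about 2.07 times the cK15 level, with a difference of -1.03 ± 0.11 (SE; adjusted p = 2.89e-07) and little spread in either group. The second step is the branched-chain ketoacid dehydrogenase complex. Its E1 subunit genes are Bckdhb, at 32.0, 28.3 and 33.0 against 93.0, 87.7 and 78.9 (difference -1.45 ± 0.14, adjusted p = 2.44e-08), and Bckdha, at 105, 97.6 and 110 against 216, 187 and 161 (difference -0.83 ± 0.11, adjusted p = 7.74e-06). Its E2 subunit gene Dbt was at 15.5, 14.4 and 12.3 against 27.2, 25.8 and 20.5 (difference -0.76 ± 0.13, adjusted p = 0.000818). For all 3 subunits no library crossed between groups.

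The E3 subunit Dld, which the complex shares with pyruvate dehydrogenase, did not follow. It was at 414, 445 and 393 FPKM in cK15 and 343, 369 and 341 in control, with every cK15 library above every control but not past the threshold (difference 0.25). The regulators of the complex were not called either: the kinase Bckdk differed by 0.07, and the phosphatase Ppm1k was at 14.2, 10.2 and 9.82 against 25.6, 15.2 and 15.6 (adjusted p = 0.404). The 3 lower subunit genes encode parts that belong to this complex alone.

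Further along, Ivd, the isovaleryl-CoA dehydrogenase of leucine breakdown, was at 120, 117 and 114 FPKM against 280, 255 and 225 (difference -1.10 ± 0.08, adjusted p = 4.42e-11), the smallest p of the list. Aldh6a1, which takes methylmalonate semialdehyde to propionyl-CoA in valine breakdown, was at 37.7, 26.8 and 24.3 against 101, 72.7 and 70.5 (difference -1.43 ± 0.21, adjusted p = 7.07e-05). In both genes the replicate with the small share of top genes was the highest of its group, and the groups did not overlap. Mut (methylmalonyl-CoA mutase) differed by -0.91, Echs1 (short-chain enoyl-CoA hydratase) by -0.58, Mccc2 (a methylcrotonyl-CoA carboxylase subunit) by -0.50 and Hsd17b10 by -0.46, and these 4 were past the threshold. The call of Mut was lost without cK15 replicate 4 (adjusted p = 0.0569), that of Echs1 without cK15 replicate 1 (0.0622) and that of Mccc2 without cK15 replicate 1 or control replicate 3 (up to 0.156). Hsd17b10 kept its call only without cK15 replicate 3 or control replicate 2, and its adjusted p was up to 0.453 without one of the other 4 libraries. Mccc1, the partner subunit of Mccc2, was at 19.8, 21.4 and 20.7 against 24.8, 30.7 and 26.1 and was not called (adjusted p = 0.170).

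Among other amino acid and sulfur enzymes, 10 of 26 tested (38.5%) fell and none rose, with a median of -0.17. Cth, cystathionine gamma-lyase, which releases cysteine from cystathionine, was listed at 0 in all 3 cK15 libraries and was at 3.15, 3.13 and 2.77 FPKM in control. A value listed at 0 may be a failed estimate, so no fold change is given (adjusted p = 1.06e-07). Over the day Cth was at most 0.232 in cK15 and at least 1.68 in control.

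Tyrosine breakdown ends with Fah, fumarylacetoacetate hydrolase, the gene whose upstream window holds 8 matches. Its FPKM was 5.45, 5.98 and 2.96 against 24.9, 24.9 and 17.6, with a control mean 4.69 times that of cK15 (difference -2.04 ± 0.26, adjusted p = 5.18e-06). In either group replicate 4 was the lowest, and the ranges stayed far apart. Ccbl2 (now Kyat3), a kynurenine aminotransferase, was at 9.91, 8.01 and 8.62 against 32.0, 32.9 and 28.0 (difference -1.70 ± 0.11, adjusted p = 5.3e-12). The proline oxidase Prodh, at 8.98, 6.49 and 7.15 against 16.1, 16.4 and 16.5, differed by -1.03 (adjusted p = 0.00119). Aldh4a1, which carries out the next step of proline breakdown, was at 18.2, 16.7 and 18.8 against 36.6, 36.7 and 30.0 and differed by -0.90 (adjusted p = 2.93e-06). Oat, ornithine aminotransferase, differed by -0.63 and had a small spread, at 96.8, 96.5 and 93.5 against 150, 158 and 139 (adjusted p = 3.72e-07).

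The remaining 4 lower members were Gcat (threonine and glycine metabolism, -1.14), Mpst (mercaptopyruvate sulfurtransferase, -0.90), Gpt (alanine aminotransferase, -0.85) and Gcdh (glutaryl-CoA dehydrogenase of lysine breakdown, -0.83). Leaving out cK15 replicate 3 or 4 or control replicate 2 or 3 ended the call of Mpst (adjusted p up to 0.212), and leaving out cK15 replicate 4 ended that of Gpt (0.0584). Annotated genes overlap several members, among them Prodh with Dgcr6 on the opposite strand and Aldh4a1 with Gm21969 on the same strand, and Gcat had no single match in the annotation.

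**Figure D2:**
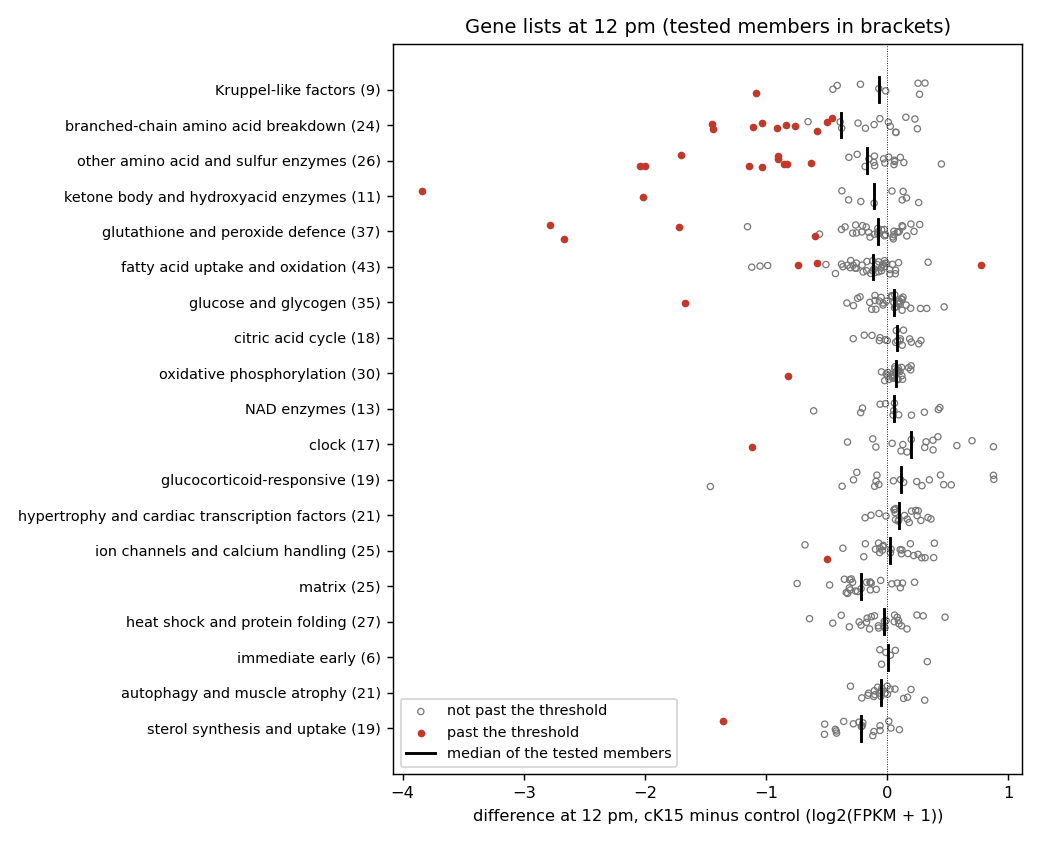
Each point is a tested gene of 1 of 19 lists, placed by its noon difference in log2(FPKM + 1), cK15 minus control; filled red points passed the threshold, and the bar is the median of the list. The branched-chain list has 10 filled points of 24 and a median of -0.38, whereas the citric acid cycle has none of 18 and a median of 0.08.

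Fatty acid uptake and oxidation gave few calls at noon although most members lay low. Of 43 tested members 2 fell, 1 rose and 40 did not pass, with 35 of 43 differences below 0 and a median of -0.12. Lpl, the lipoprotein lipase that frees fatty acids from circulating triglyceride, was at 352, 329 and 310 FPKM against 543, 604 and 511 (difference -0.74 ± 0.11, adjusted p = 4.74e-05). Plin2, a coat protein of lipid droplets, was at 27.4, 26.5 and 21.5 against 33.9, 41.3 and 38.5 (difference -0.58 ± 0.11, adjusted p = 0.00218). Acsl6, an acyl-CoA synthetase, rose: it was at 22.1, 20.1 and 18.4 against 10.4, 11.4 and 12.4 (difference 0.77 ± 0.17, adjusted p = 0.0168). In these 3 genes no library crossed between groups, and Acsl6 lost its call without cK15 replicate 1 or 3 or control replicate 2 or 3 (adjusted p up to 0.127).

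At the mean of the other 5 times, 25 of the same 43 genes were lower (against 5.93% of all genes) and 1 was higher, with a median of -0.28. In 40 of the 43 the noon difference was the less negative or more positive one, against 5552 of all 10600 genes. No member had an unadjusted p under 0.05 for the change between noon and the other times, so for single genes the weaker noon difference was not beyond the spread. Pdk4 and Ucp3 are described here after their values were seen. Pdk4, a kinase that shuts off pyruvate dehydrogenase, was at 25.8, 24.5 and 19.6 FPKM against 28.6, 60.9 and 58.7, with control replicate 2 close to the cK15 range. It differed by -0.99 at noon (adjusted p = 0.173) and by -1.63 at the other times. Ucp3, a mitochondrial carrier, was at 5.05, 3.33 and 6.63 against 8.27, 16.4 and 11.7. It differed by -1.12 at noon (adjusted p = 0.114) and by -1.43 at the other times. Slc25a20, the carnitine-acylcarnitine carrier, was at 136, 152 and 140 against 175, 207 and 194 and missed the threshold at noon (adjusted p = 0.0695).

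Several further genes of peroxisomes, aldehydes and small acids were also lower. Pxmp2, a peroxisomal membrane channel, differed by -1.35 and the mitochondrial aldehyde dehydrogenase Aldh2 by -1.32. Abat, which transaminates gamma-aminobutyrate, was at 0.992, 0.523 and 0.521 FPKM against 6.30, 5.52 and 3.75 (difference -1.87 ± 0.18, adjusted p = 4.01e-08). Its cK15 values were all under 1 FPKM. Selenbp1, a selenium-binding methanethiol oxidase, was at 46.8, 57.6 and 47.0 against 140, 149 and 147 (difference -1.51 ± 0.12, adjusted p = 3.78e-10). The sugar-reducing enzyme Dcxr (-1.46), the aminoacylase Acy1 (-1.30), the D-lactate dehydrogenase Ldhd (-0.83) and the acyl-CoA thioesterase Acot7 (-0.52) also fell, the last with a call that was lost without cK15 replicate 1 or 3 or control replicate 3 or 4 (adjusted p up to 0.122).

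Glucose genes were mostly not past the threshold: 1 of 35 tested fell and none rose, with a median of 0.06. The one lower member was Pfkfb1, a bifunctional enzyme that sets fructose 2,6-bisphosphate, at 1.04, 1.88 and 2.34 FPKM against 5.18, 10.5 and 7.87 (difference -1.67 ± 0.28, adjusted p = 0.000738). Fbp2, the muscle fructose bisphosphatase, which was not in the list, was at 6.93, 3.89 and 5.21 against 15.5, 20.6 and 19.6 (difference -1.64 ± 0.27, adjusted p = 0.000337). In both genes the highest cK15 library stayed well below the lowest control. Pcx, the pyruvate carboxylase that feeds the citric acid cycle, fell by 0.86 on the log2 scale. Its call was lost without cK15 replicate 3 or 4 or control replicate 2 or 3 (adjusted p up to 0.174).

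None of 18 citric acid cycle genes passed the limma threshold, and the median was 0.08. At unadjusted p under 0.05 there were 2 of the 18, against 616 of all 10600 tested genes. Oxidative phosphorylation had 1 lower gene of 30 and a median of 0.07. That gene, Cox6a2, the muscle form of a cytochrome c oxidase subunit, was at 1429, 1404 and 1233 FPKM against 2880, 2134 and 2218 (difference -0.82 ± 0.19, adjusted p = 0.0219). Its groups did not overlap, but the call held only without control replicate 3, and leaving out any of the other 5 libraries ended it (adjusted p up to 0.184).

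Among ion channel and calcium genes 1 of 25 fell. Kcnip2, the accessory subunit of the channels that carry the transient outward potassium current, was at 60.5, 52.9 and 56.1 FPKM against 86.9, 75.8 and 77.3 (difference -0.49 ± 0.10, adjusted p = 0.00566). All cK15 libraries were below all controls, and the call was lost without cK15 replicate 3 or control replicate 2 (adjusted p up to 0.0635). Myl1, a myosin light chain of fast skeletal muscle, was at 12.7, 25.6 and 9.88 against 36.7, 60.8 and 52.2 (difference -1.66 ± 0.28, adjusted p = 0.000686). In each group replicate 3 was the highest. Myl1 made up most of the skeletal muscle marker sum, which was 16.6 to 38.2 in cK15 and 44.9 to 66.5 in control, with Myh1 at 0 in all 6 libraries.

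Scd4, a stearoyl-CoA desaturase, was the 1 lower gene of 19 in the list of sterol synthesis and uptake (median -0.21). That list also holds genes of fatty acid synthesis and desaturation, Scd4 among them, and none of its sterol genes was called. Scd4 was at 0.461, 0.403 and 1.64 FPKM against 2.35, 4.40 and 4.03. Its difference was -1.36 ± 0.32 (adjusted p = 0.03, and 0.0795 with the replicate number as a block), and the gene shares sequence with other desaturases. Of the 75 lower genes 40 were in no list, among them also the glycine methyltransferase Gnmt, which was listed at 0 in 2 cK15 libraries, the thiosulfate sulfurtransferase Tst, the brain-type creatine kinase Ckb, the protein kinase Prkcd (6.65, 7.40 and 7.30 against 11.2, 13.9 and 15.6) and the leukotriene enzyme Alox5. The locus 2210407C18Rik, at 0.331, 0 and 1.18 against 5.57, 4.87 and 4.87, was among the 15 called genes with the lowest differences but kept its call only without cK15 replicate 4 (adjusted p up to 0.185 without one of the other 5). The calls of Scd4, Gnmt, Tst, Ckb and Alox5 were each lost in 4 or 5 of the 6 fits that left out 1 library, with an adjusted p of up to 0.227, 0.2, 0.311, 0.266 and 0.277. With the replicate block the calls of Creg1 (adjusted p = 0.111), Fscn1 (0.053) and Gnmt (0.0768) were also lost.

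Just inside the threshold stood Usp18 (adjusted p = 0.0489), Creg1 (0.0472), Dock4 (0.0428) and Hsd17b10 (0.0428), with differences of -0.75, -0.82, -0.83 and -0.46. Each of these calls was lost in 4 or 5 of the 6 fits that left out 1 library, with an adjusted p of up to 0.441, 0.318, 0.453 and 0.453. Tst, described above, had the same adjusted p as Dock4 and Hsd17b10 (0.0428) and differed by -1.12. Just outside stood the mitochondrial deacetylase Sirt3 (0.0516; difference 0.44), Spon2 (0.0558; -0.87), 4833420G17Rik (0.0558; -0.44) and the peroxisomal enzyme Ehhadh (0.0590; -0.63). Sirt3 was at 36.6, 34.0 and 33.4 FPKM in cK15 and 29.7, 23.4 and 23.4 in control.

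**Figure D3:**
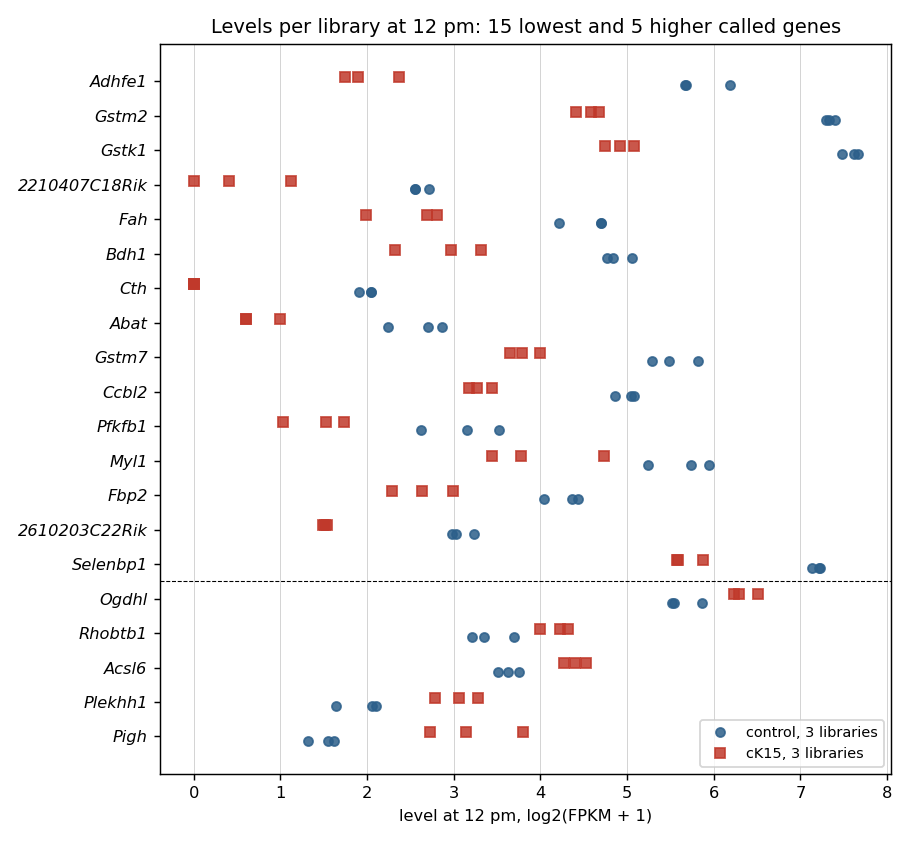
Levels in log2(FPKM + 1) of the 15 called genes with the lowest differences and of the 5 higher genes (below the dashed line), 1 mark for each of the 6 noon libraries. In all 20 genes the cK15 squares and the control circles do not overlap.

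Only 5 genes were higher in cK15 at noon. Pigh, a subunit of the enzyme that starts the glycosylphosphatidylinositol anchor, was at 12.9, 5.62 and 7.82 FPKM against 1.92, 1.49 and 2.07 (difference 1.73 ± 0.27, adjusted p = 0.000183). Plekhh1, its neighbour on the opposite strand, was at 8.72, 5.87 and 7.37 against 3.16, 2.12 and 3.30 (difference 1.11 ± 0.16, adjusted p = 8.93e-05). The annotated genes overlap by 992 bases, and cK15 replicate 1 was the highest in both. Pigh was higher in each of the 18 cK15 libraries of the day than in any control, and Plekhh1 in 17 of 18.

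Ogdhl, a relative of the oxoglutarate dehydrogenase subunit, was at 90.0, 74.1 and 77.3 FPKM against 45.5, 57.3 and 44.9 (difference 0.70 ± 0.16, adjusted p = 0.0197). Rhobtb1 was at 19.0, 15 and 17.7 against 11.9, 9.19 and 8.27 (difference 0.76 ± 0.16, adjusted p = 0.00928). The call of Ogdhl was lost without cK15 replicate 1 or 4 or control replicate 2 or 4 (adjusted p up to 0.161), and that of Rhobtb1 without cK15 replicate 1 or 4 or control replicate 3 or 4 (up to 0.128). The fifth gene, Acsl6, belongs to the lipid genes. With the replicate block the number of higher genes was 13 in place of 5, and with the term for the library set it was 36. It was 2 without cK15 replicate 1 and 3 without cK15 replicate 4 or control replicate 4.

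The clock genes had 1 call among 17 tested. Arntl (Bmal1), the transcription factor that pairs with Clock to drive the positive arm of the circadian loop, was at 2.80, 6.40 and 4.80 FPKM in cK15 and 8.85, 11.7 and 12.2 in control. The groups did not overlap, and the difference was -1.11 ± 0.25 (SE; adjusted p = 0.0153). The call was lost without cK15 replicate 1, control replicate 3 or control replicate 4 (adjusted p up to 0.223). Arntl is at chr7:113207465-113314126 (plus strand). In control its mean fell from 27.3 ± 1.5 (SD, n = 3) at 8 am to 10.9 ± 1.8 at noon and 2.19 ± 0.18 at 4 pm. In cK15 the means at these times were 24.2 ± 8.0, 4.67 ± 1.80 and 1.36 ± 0.30.

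Of all tested genes Arntl had the smallest p for a noon difference unlike that of the other 5 times: -1.11 at noon and 0.10 at the other times, a change of -1.22 ± 0.27 (SE; unadjusted p = 9.28e-05, adjusted p = 0.983). The change did not pass the threshold over 10600 genes. The value of 0.10 is a mean of unlike signs. Arntl differed by 0.59 at 12 am, 0.40 at 4 am and 0.20 at 8 pm. At the times next to noon it was lower too, by -0.22 at 8 am and -0.44 at 4 pm. None of these single times passed the threshold. Of the 17 clock genes, 5 had an unadjusted p under 0.05 for this change, against 175 of all tested genes. They were Arntl, Npas2, Per2, Dbp and Gm129 (Ciart, a repressor in the loop). Per2 was higher in cK15 at 4 pm as well, by 0.63 (limma adjusted p = 0.0299), against 0.58 at noon.

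Other members did not pass the threshold at noon but lay on one side. Npas2, a partner of Arntl like Clock, was at 1.11, 0.801 and 1.12 FPKM against 1.5, 1.28 and 1.79 (difference -0.33, adjusted p = 0.897). Among the repressors of the loop, Per1 was at 4.26, 4.62 and 7.42 against 2.35, 1.77 and 3.32 (difference 0.88, adjusted p = 0.383). Per2 was at 3.59, 2.48 and 2.77 against 2.15, 1.11 and 1.73 (difference 0.58, adjusted p = 0.1). In Npas2 every cK15 library was below, and in Per1 and Per2 above, every control. In Cry2, which was not called either (difference 0.32), every cK15 library was also above every control. Of the 17 clock genes, 2 (Arntl and Npas2) lay wholly below and 3 wholly above. Of all tested genes, 6.29% lay wholly below and 4.18% wholly above. The output gene Dbp, at 21.8, 17.6 and 24.6 against 21.4, 12.6 and 13.9, and Gm129, at 8.01, 5.95 and 8.66 against 6.13, 3.21 and 3.69, overlapped between groups. The median of the 17 genes was 0.20 at noon and 0.02 at the other times.

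Noon falls in a steep part of the day for many of these genes, as the control means of 8 am and 4 pm show. In 16 of 17 clock genes the noon difference had the sign of the control's change from 8 am to 4 pm, and the exception was Cry1. The 5 clock genes whose control level fell over these hours held 4 that were lower in cK15 at noon, and all 12 whose level rose were higher. At the other times, with the control means of the time before and after, the count was 11 to 14 of 17. Of the 47 tested genes that changed by at least 1 log2 unit in control from 8 am to 4 pm, 32 (68.1%) had a noon difference of that sign, and at the other times the share was 57.4 to 72.5%. Over all tested genes the share was 48.4% at noon and 49.0 to 55.4% at the other times. This count was chosen after the values were seen, and the clock genes move together, so it carries no test. The 8 am and 4 pm libraries are not part of the noon difference.

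**Figure D4:**
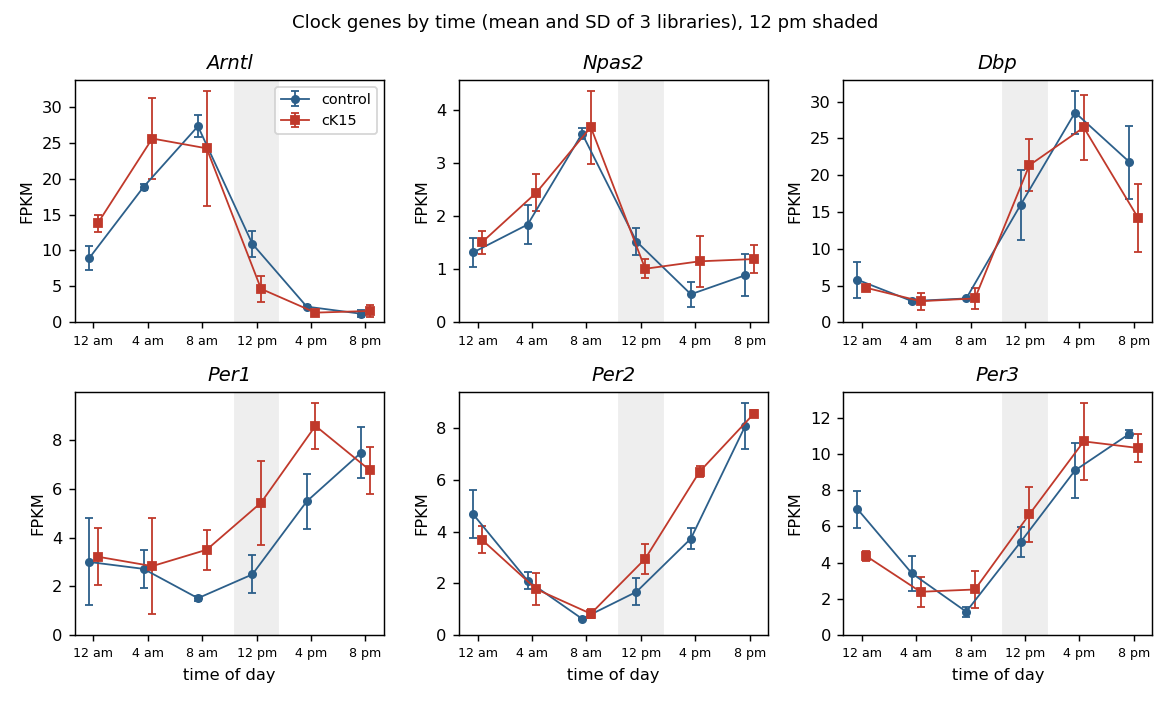
FPKM of 6 clock genes by time of day, as the mean and SD of 3 libraries in control (blue circles) and cK15 (red squares), with noon shaded. At noon the cK15 mean of Arntl (4.67) lies below that of control (10.9) and those of Per1, Per2 and Per3 lie above, while at 8 am the means of Arntl are 24.2 and 27.3.

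The other lists without a call are given by their counts. At unadjusted p under 0.05, limma gave 3 of 13 genes of NAD enzymes, 5 of 19 glucocorticoid-responsive genes, 1 of 21 of hypertrophy and cardiac transcription factors, 4 of 27 of heat shock and protein folding, 0 of 6 immediate early genes and 1 of 21 of autophagy and muscle atrophy. By comparison, 616 of all 10600 tested genes had an unadjusted limma p under 0.05. None of the genes in these lists passed the adjusted threshold. The medians of these lists lay between -0.05 and 0.11. Matrix genes had no call among 25 tested (4 at unadjusted p under 0.05), but 20 of the 25 differences were below 0 and the median was -0.21. In 9 of the 25 every cK15 library was below every control, against 6.29% of all genes.

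Markers of other cells were lower in cK15 at noon in part. In bulk tissue, fewer cells of a type and less RNA per cell cannot be told apart. The summed FPKM of 7 endothelial markers was 290 to 330 in cK15 and 331 to 342 in control, so that the groups stood just apart. The sum of 7 fibroblast markers was 1165 to 1464 against 1395 to 1567, that of 9 macrophage markers 169 to 208 against 199 to 248, and that of 7 smooth muscle and pericyte markers 244 to 371 against 345 to 389. These ranges overlap. The 5 atrial markers summed to 9.84 to 11.7 against 14.0 to 23.4, with Bmp10 at 0 in all 6. The 8 lymphocyte markers summed to 2.12 to 3.42 against 3.78 to 4.32, and the 5 Schwann cell and nerve markers to 2.47 to 2.64 against 3.10 to 3.82. These sums lie near the lower limit of FPKM. The mean of 1 FPKM needed for testing was reached by 0 lymphocyte, 1 Schwann cell and nerve, and 0 adipocyte markers. The 5 adipocyte markers summed to 0 to 0.692 against 0.144 to 3.05, with Adipoq at 0 in all 6, mesothelial markers summed to 13.6 to 15.7 against 15.1 to 26.9, and blood markers to 117 to 231 against 158 to 253. The 8 heart muscle cell markers, with 59332 to 111196 against 58053 to 98212, were the most abundant by far and overlapped. By gene, all 6 tested fibroblast markers were lower at noon, with a median of -0.26, and none passed the threshold. At unadjusted limma p under 0.05 there were 3 of the 6. In the mean of the other 5 times all 6 were called lower, against 5.93% of all tested genes. Of the 7 smooth muscle and pericyte markers, by contrast, 4 were above 0 at noon. The part of these sums and markers in the lower matrix values and in the other results was not tested.

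Most noon differences were also present at the other times. Of the 80 genes, 79 had the same sign in the mean of the other 5 times, in libraries that do not enter the noon difference, and 75 passed the threshold there. Arntl was the exception in sign, and Dock4, Fscn1, Rhobtb1 and Usp18 had the same sign without passing. By single times, 49 of the 80 were past the threshold at all 5 other times, and 8 at none of them (Arntl, Dock4, Fscn1, Mpst, Ogdhl, Prkcd, Rhobtb1 and Usp18). For the 75 lower genes the median difference was -0.93 at noon and -0.97 at the other times, and 47 of the 75 had a smaller drop at noon. No gene passed the limma threshold for the change between noon and the other times (175 at unadjusted p under 0.05, smallest adjusted p 0.983). The number of calls at noon was also below that of each other time, with 129 (1.22%) at 12 am, 120 (1.13%) at 4 am, 113 (1.07%) at 8 am, 139 (1.31%) at 4 pm and 120 (1.13%) at 8 pm; the difference in counts was not tested.

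**Figure D5:**
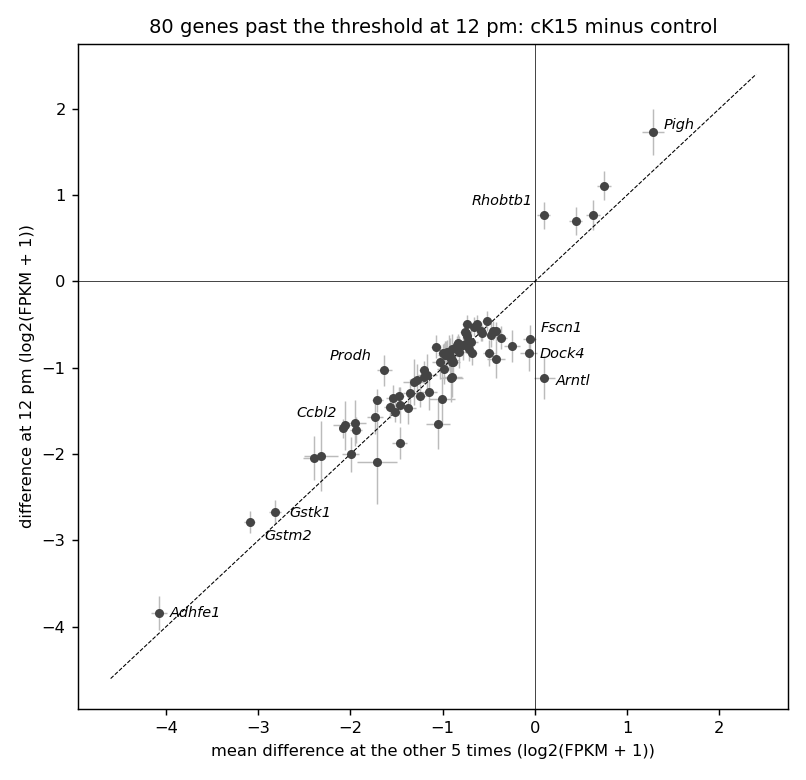
Each point is 1 of the 80 genes past the threshold at noon; the horizontal axis is the mean difference at the other 5 times and the vertical axis the noon difference, both in log2(FPKM + 1) and cK15 minus control, with bars of 1 SE and a dashed line of equal values. Most points lie near the line, from Adhfe1 at -3.84 to Pigh at 1.73, and Arntl, Fscn1, Dock4 and Rhobtb1 lie near 0 on the horizontal axis.

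Seen from the other side, the mean of the other 5 times called 962 genes (9.08%), with 15 libraries a genotype in place of 3. Of 629 lower genes there, 592 were also below 0 at noon and 71 were called at noon, with a median of -0.34 there and -0.26 at noon. Of 333 higher genes (3.14%), 306 were above 0 at noon and 4 were called, with a median of 0.24 there and 0.18 at noon. Of 47 genes that were at least 1 log2 unit lower at the other times, all 47 were below 0 at noon, and 33 were called. In the branched-chain list the other times called 16 genes lower and 1 higher, and 21 of the 24 members had a less negative difference at noon. Among the 8 genes with the smallest p for the change between noon and the other times were also Rhobtb1 (0.76 at noon, 0.10 at the other times), Fscn1 (-0.67 and -0.05) and Dock4 (-0.83 and -0.07). Another was 9430038I01Rik, at 5.93, 2.75 and 4.09 FPKM against 2.03, 1.21 and 1.39. None of these changes passed the threshold.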

How the data were processed

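RNA of the heart apex was measured by RNA sequencing. The authors deposited FPKM, a value per gene and library, in a table for each genotype; the submitters' processing notes name GSNAP, HTSeq and mm10, and the sources used here give no versions, roles or annotation. Both tables list 23352 entries, and 27 of them, with symbols that became dates or occur repeatedly, entered the tests without being named. FPKM divides by gene length and library total, so a few abundant genes can shift all others. No counts are in the files, the depth is unknown, and no counting interval is given.

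From these values, those genes whose mean over the 36 libraries reached 1 FPKM (10600 with Klf15 added) were log2-transformed after adding 1 and tested in limma 3.58.1 (R 4.3.3), with trended and robust variance moderation. The fit had 12 group means and 24 residual degrees of freedom, and only the 6 noon libraries enter the noon difference. P-values were adjusted by Benjamini-Hochberg over all genes tested. The change between noon and the mean of the other 5 times was a contrast of the same fit. The test was checked on simulated data with independent noise in each library. That check does not cover effects shared among libraries or the lower limit of FPKM.

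Replicates 3 and 4 occur in both genotypes. Deviations from the group means of same-numbered libraries correlated in all 12 pairs (0.157 to 0.509; 0.280 and 0.2 at noon), which met the rule for pairing (over 0.1 in every pair), and the replicate block was fitted as an alternative. This pairing comes from the data, not from the labels, and libraries of different numbers met the same rule. The correlation of cK15 replicate 1 with control replicate 2 was 0.247 at 8 pm, its lowest, and 0.540 at noon, its highest. The rule therefore cannot show that the number pairs libraries. The highest same-number value, 0.509, was that of replicate 4 at 8 pm, where both libraries belong to the set with the smaller share of top genes. In all, 18 alternatives were run.

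Named genes were Klf15, all higher genes, the 15 called genes with the lowest differences, other lower genes by role, called list members (for most lists up to 5 by adjusted p), clock genes, genes nearest the threshold and those with the smallest p for the noon change; a few further ones are named as chosen after their values were seen. The 19 gene lists, 13 marker lists and the comparison itself were chosen with earlier results of these data known. Gene positions are from GENCODE M21 (GRCm38, the same assembly as mm10), and promoter sequences are RefSeq's.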

Additional observations from a re-analysis of the deposited data

How the results depend on the processing

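Of the 80 genes past the threshold, 47 kept their call without each of the 6 noon libraries in turn, 30 in every setting that tested them, and none changed sign in any of the 18 settings. The total was 33 (2 higher, 31 lower) with only the 6 noon libraries in the fit and 152 (36 higher, 116 lower) with a term for the library set. The count of higher genes was also 8 without the mean filter, 9 after quantile normalization, 8 without the library set and 13 with the replicate block. Higher genes made up 23.7% of calls with the set term. Leaving out 1 library gave 57 to 79 calls in all, 2 to 7 higher and 54 to 72 lower. The change between noon and the other times gave 0 genes in every setting but the set term, with 1 (Usp2: 31.5, 22.9 and 26.1 FPKM against 22, 14.9 and 16.2). Lower branched-chain genes numbered 5 with only the 6 noon libraries. Klf15 differed by -0.31 with a pseudocount of 5, by -1.08 with a mean FPKM of at least 5 or with only the 6 noon libraries, by -0.95 without the library set and by -1.30 to -0.87 without 1 library (-1.04 without cK15 replicate 3 or 4), and missed the threshold in these fits except without cK15 replicate 1 or control replicate 3. With the replicate number as a fixed block 76 of the 80 calls held, all but Creg1, Fscn1, Gnmt and Scd4. With it as a random block within each genotype 71 held, and the calls of Mpst, Tst, Dock4, Usp18 and Alox5 were lost besides those 4. The causes of these changes were not tested, except that the fit with 6 libraries holds fewer samples. Depth is unknown, and its effect on the calls was not tested.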

Other observations

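Some large noon differences were not past the threshold; these genes were picked after their values were seen. Pttg1, which encodes securin, was at 6.19, 8.67 and 119 FPKM in cK15 replicates 1, 3 and 4 and at 218, 241 and 221 in control replicates 2, 3 and 4 (difference -3.49, limma adjusted p = 0.114). Cyfip2, at 10.5, 10.1 and 32.4 against 63.6, 49.4 and 52.6, and Fndc9, at 1.01, 1.12 and 4.14 against 10.1, 6.32 and 9.01, had the same order, with cK15 replicate 4 between the groups. All 3 genes lie on chromosome 11, Pttg1 at chr11:43420250-43426251 and Cyfip2 at chr11:46193850-46312859, with Fndc9 inside Cyfip2 on the opposite strand. Over the 18 cK15 libraries of the day Pttg1 ranged from 6.19 to 136 with a median of 11.8, and over the 18 controls from 212 to 278, so that no cK15 library reached a control. The cause was not tested.

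Erdr1 had the opposite pattern: it was at 17.6, 23.0 and 36.1 in cK15 and at 15.8 in control replicate 2, and was listed at 0 in control replicates 3 and 4 (adjusted p = 0.152). Over the day its median was 25.5 in cK15 and 0 in control, with a highest control value of 32.7. The ribosomal precursor Rn45s, which ribosomal depletion acts on, was at 967, 220 and 484 against 4518, 323 and 2385, a spread within each group as wide as that between them.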
